A study of Schizosaccharomyces pombe with 6 samples.

Results

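The epr1 locus is a 26 kb stretch of chromosome I of the fission yeast Schizosaccharomyces pombe, chrI:2412001-2438000, around the genes pqr1, epr1 and rsa3. It was selected on the strain difference itself. Of the regions where RPA signal was raised on average over the strains, a 2 kb region here had the largest rise in cells without rad3. That region covers most of the DNA between pqr1 and epr1 and runs into the start of the epr1 transcript. The locus holds 91 of the 42641 nuclear probes on the arrays, in 26 of the 12039 windows of 1 kb that were measured. A probe belongs to the locus where its midpoint lies from 2412001 to 2438000, in the positions of the array design. Because the rise chose the locus, the strain values below are a description without a test. The annotation places 33 genes in or across the stretch, of which 15 code for proteins.

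RPA is the protein complex that coats single-stranded DNA, and Ssb1 is its large subunit. Hydroxyurea (HU) blocks ribonucleotide reductase and so starves replication forks of deoxyribonucleotides; stalled forks expose single-stranded DNA, which RPA covers. Rad3 is the fission yeast checkpoint kinase of the ATR family, which is recruited to RPA-coated DNA, slows further initiation and protects stalled forks. Replication origins of fission yeast lie in A+T-rich intergenic DNA, often with runs of A or T. Of the genes that name the locus, epr1 encodes a receptor that hands endoplasmic reticulum to autophagy through Atg8, pqr1 encodes a ubiquitin-protein ligase that limits phosphate uptake, and rsa3 encodes a ribosome assembly protein of the large subunit.

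The study hybridised immunoprecipitated DNA (IP, with Ssb1 as the target) against its own input DNA on 2-colour tiling arrays, 3 arrays for each of 2 strains. The rad3∆ strain carried the rad3 deletion and cdc25-22. The strain that the labels call WT carried cdc25-22 as well, so the controls were mutant in cdc25, the phosphatase that drives entry into mitosis. Both strains grew at 25 °C, were arrested for 4 h at 36.5 °C, returned to 25 °C and received 6 mM HU. A 60 stands in every sample title without a unit. The input label of rad3∆ replicate 3 gives cdc25-23 in place of cdc25-22, and the labels call the extracted molecule RNA. The arrays were read here as DNA, and all values rest on that reading. The labels do not say whether replicates were separate cultures, so the spread between arrays may be technical.

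Values are log2(IP/input) at a probe minus the median of the array's nuclear probes. A value of 0 is therefore the array median, not absence of RPA. The reference stretches under the probes on which the description turns are given first, read from the forward strand of the RefSeq assembly ASM294v3, with capitals marking runs of at least 5 A or 5 T. The first 3 are from the left side of the raised region, between pqr1 and epr1; the fourth is from the coding exon of epr1 with the widest gap between the strains among coding probes above background on all arrays; the fifth, in mus7, had the lowest mean among such probes and serves as the low end of the locus.
Intergenic probe, chrI:2424038-2424093: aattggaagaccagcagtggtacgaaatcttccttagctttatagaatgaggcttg
SPNCRNA.3091 probe, chrI:2424331-2424390: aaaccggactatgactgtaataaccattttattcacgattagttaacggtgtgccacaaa
SPNCRNA.3091 dim probe, chrI:2424545-2424604: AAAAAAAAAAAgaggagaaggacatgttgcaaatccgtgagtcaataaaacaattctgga
epr1 coding probe, chrI:2427028-2427087: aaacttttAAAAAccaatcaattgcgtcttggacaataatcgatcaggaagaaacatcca
mus7 coding probe, chrI:2412124-2412183: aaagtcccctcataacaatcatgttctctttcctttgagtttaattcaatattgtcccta

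The 300 bases of highest A+T content between pqr1 and the first transcript annotated as a possible UTR follow. They lie inside the raised region and were picked for A+T content, not for the strain difference. The probe 2424331-2424390, which lies in them, had a strain difference of 0.19. This small difference rests on rad3∆ array 2, which read -0.23, against 1.21 and 1.03 on rad3∆ arrays 1 and 3. The input of the probe relative to the array median was 0.02 on rad3∆ array 2, against -1.03 and -0.93 on rad3∆ arrays 1 and 3. The part of the input in the 0.19 was not tested. The dim probe 2424545-2424604 reaches the 300 bases only at their right end.
pqr1-epr1 intergenic stretch, chrI:2424255-2424554: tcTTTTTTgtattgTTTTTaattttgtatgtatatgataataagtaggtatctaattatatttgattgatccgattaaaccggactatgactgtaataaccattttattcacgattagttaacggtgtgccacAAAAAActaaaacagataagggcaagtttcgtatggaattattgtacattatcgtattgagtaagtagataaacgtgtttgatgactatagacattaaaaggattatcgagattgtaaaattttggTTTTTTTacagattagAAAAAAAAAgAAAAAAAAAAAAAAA
It was 74.3% A+T and held 6 runs of AAAAA or TTTTT or longer. Of 41905 consecutive stretches of 300 bases in the genome, 85.9% held at least 1 such run, the median was 2, and 5.46% held at least 6. Such a run was present under 37.1% of the 36405 probes with matched positions and under 36 of the 91 probes of the locus. The 300 bases were picked for high A+T content and the genome stretches were not, so the 5.46% is not a like comparison. These matches describe the sequence only.

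The IP channel of rad3∆ array 2 was dim, with a median background-subtracted signal of 41.5 against 241 to 1145 on the other 5 arrays, and 79.6% of its probes were well above background, against 94.2% to 99.5% on the others. Each slide carried the rad3∆ and the WT array with its number, and the IP was in the green channel on slides 1 and 2 and in the red channel on slide 3. The rad3 gene itself, chrII:904184-913629, served as a check of the labels: its 32 probes averaged -5.46, -3.70 and -3.81 in the input of rad3∆ arrays 1, 2 and 3, against -0.37, -0.24 and -0.32 in WT, on the log2 scale relative to the array median. The groups did not overlap, and the exact permutation test gave p = 0.10 (two-sided), the smallest it can give for 3 arrays against 3.

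In rad3∆ cells RPA signal was highest over the DNA between the divergent genes pqr1 and epr1, and WT cells had a smaller rise there. Over the 2 kb shared region, chrI:2424001-2426000 (8 probes in 2 windows), the mean log2(IP/input) was 1.05, 0.55 and 1.20 on rad3∆ arrays 1, 2 and 3, and 0.33, 0.33 and 0.36 on WT arrays 1, 2 and 3. All 3 rad3∆ arrays lay above all 3 WT arrays, but this separation rested on 1 probe near background, 2424545-2424604. Without it the means were 1.13, 0.35 and 1.13 on rad3∆ arrays 1, 2 and 3, against 0.45, 0.23 and 0.35 on WT arrays 1, 2 and 3, so that rad3∆ array 2 lay below WT array 1. With all 8 probes the strain means were 0.94 ± 0.34 in rad3∆ and 0.34 ± 0.02 in WT (SD, n = 3 each), a difference of 0.60, and without that probe the difference was 0.53. Within slides, rad3∆ minus WT was 0.73 on slide 1, 0.23 on slide 2 and 0.85 on slide 3 with all probes, and 0.12 on slide 2 without that probe. Slide 2 holds the dim rad3∆ array; without that array the difference over all 8 probes was 0.78. The part of the dim array in the smaller difference on slide 2 was not tested. Nor was the part of the input at probe 2424331-2424390, which differed between the arrays of slide 2 and is given below.

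Between the annotated ends of pqr1 and epr1, chrI:2423827-2425815 (1989 bp, 7 probes), the mean was 1.16, 0.58 and 1.25 on rad3∆ arrays 1, 2 and 3, against 0.38, 0.40 and 0.43 on WT arrays 1, 2 and 3. Without the probe near background they were 1.26, 0.37 and 1.15 in rad3∆ against 0.51, 0.33 and 0.40 in WT, and the strains overlapped there too. All 7 probe means were higher in rad3∆. In the 1 kb window 2424001-2425000 the values were 1.06, 0.61 and 1.41 in rad3∆ against 0.35, 0.24 and 0.51 in WT. In the neighbouring window 2425001-2426000 they were 1.04, 0.50 and 0.99 in rad3∆ against 0.30, 0.41 and 0.20 in WT. The first of these windows was the highest of the 26 on all 3 rad3∆ arrays with all probes, and on rad3∆ arrays 1 and 3 without the probe near background. Among WT arrays it was the highest on array 3 only; the highest were 2429001-2430000 on WT array 1 and 2426001-2427000, inside epr1, on WT array 2.

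**Figure D1:**
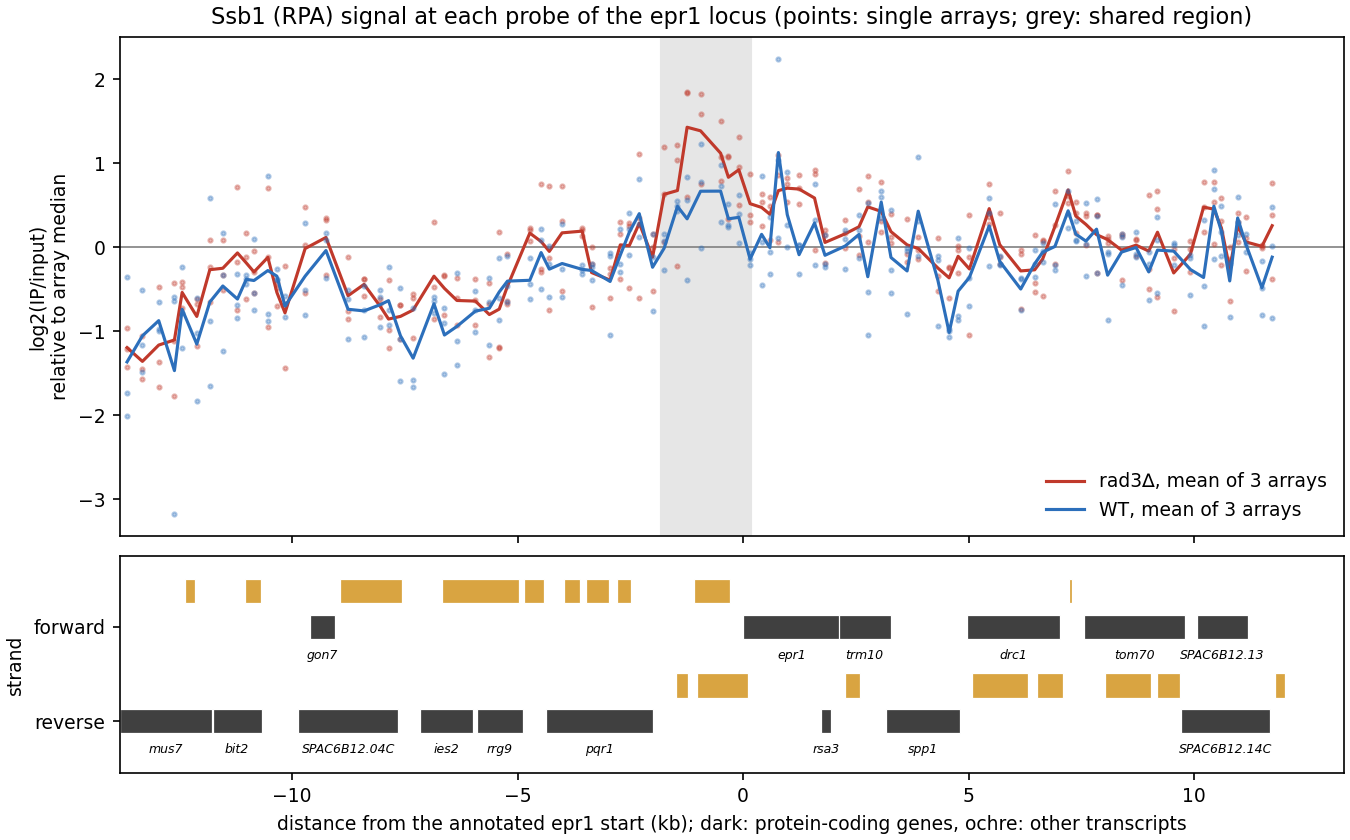
Upper panel: log2(IP/input) above or below the array median (y axis) at the 91 probes of the locus against distance from the annotated epr1 start in kb (x axis). Red is rad3∆, blue is WT, points are single arrays and lines are means of 3 arrays; the grey band is the 2 kb shared region. Lower panel: annotated genes by strand. The red line lies above the blue one through the grey band, where the strain means of the region are 0.94 and 0.34, and both are lowest at the left.

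The probes of the raised region differed in how well they were measured. The probe at 2424843-2424902, under the overlapping transcripts SPNCRNA.194 and SPNCRNA.825, was well above background in both channels on all 6 arrays, and read 1.82, 0.75 and 1.59 on rad3∆ arrays 1, 2 and 3, against 1.23, -0.01 and 0.78 on WT arrays 1, 2 and 3. On each slide it was higher in rad3∆, although WT array 1 lay above rad3∆ array 2. The dim SPNCRNA.3091 probe at 2424545-2424604 had the highest mean in rad3∆, with 0.59, 1.85 and 1.84 on rad3∆ arrays 1, 2 and 3, against -0.39, 0.83 and 0.56 on WT arrays. Its input signal was low, at -3.55 in rad3∆ and -3.45 in WT relative to the array median. Its IP was well above background on 2 rad3∆ arrays and on 0 WT arrays, and its input on 1 array of each strain, so its ratio is poorly measured in both strains. In both channels, 6 of the 8 probes of the region were above background on all arrays, and with such probes alone the difference over the region was 0.50 and rad3∆ array 2, at 0.38, lay below WT arrays 1 and 3, at 0.58 and 0.43.

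Other probes describe the step into the region and out of it. At the left, the last pqr1 probe, 2423779-2423838, averaged -0.12 in rad3∆ and -0.24 in WT, and the intergenic probe 2424038-2424093 averaged 0.63 in rad3∆ and -0.01 in WT. The SPNCRNA.3091 probe 2424331-2424390 read 1.21, -0.23 and 1.03 in rad3∆ against 0.48, 0.43 and 0.55 in WT, so that rad3∆ array 2 was below every WT array there. Its input relative to the array median was -1.03, 0.02 and -0.93 on rad3∆ arrays 1, 2 and 3. On WT arrays 1, 2 and 3 that input was -0.90, -1.81 and -1.33. The part of the high input of rad3∆ array 2 in its low ratio was not tested. To the right, the means were 1.12, 0.83 and 0.92 in rad3∆ at the probes starting at 2425288, 2425461 and 2425692, against 0.67, 0.34 and 0.35 in WT. Mean signal in rad3∆ thus stayed above the array median at all 7 intergenic probes, and was highest near the middle of the stretch.

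The non-coding transcripts SPNCRNA.3091, SPNCRNA.194 and SPNCRNA.825 cover most of the stretch, and their values are those of the same probes. SPNCRNA.3091, reverse strand, chrI:2424324-2424587, averaged 1.05 ± 0.34 in rad3∆ and 0.41 ± 0.32 in WT. SPNCRNA.194, forward strand, chrI:2424735-2425515, averaged 1.11 ± 0.44 in rad3∆ and 0.56 ± 0.23 in WT. SPNCRNA.825, reverse strand, chrI:2424794-2425918, averaged 1.06 ± 0.43 in rad3∆ and 0.51 ± 0.11 in WT (SD, n = 3 arrays each). The arrays of the strains did not overlap at SPNCRNA.3091, with 0.90, 0.81 and 1.43 in rad3∆ against 0.05, 0.63 and 0.55 in WT, but 1 of its 2 probes is the one near background, and at the other the strains overlapped. They overlapped at SPNCRNA.194, where rad3∆ array 2 read 0.62 and WT array 1 read 0.82, and at SPNCRNA.825, where rad3∆ array 2 read 0.59 and WT array 1 read 0.63.

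The gene epr1, which encodes the autophagy receptor, lies on the forward strand at chrI:2425816-2427967, and 8 probes fall in it, 1 of them in the shared region. Its gene body averaged 0.59, 0.31 and 0.63 on rad3∆ arrays 1, 2 and 3, against 0.15, 0.36 and 0.10 on WT arrays 1, 2 and 3. The strains overlapped: WT array 2 was above rad3∆ array 2. The means were 0.51 ± 0.18 in rad3∆ and 0.20 ± 0.14 in WT (SD, n = 3 each), a difference of 0.31, and the slides gave 0.44, -0.05 and 0.53. Of its 8 probe means, 7 were higher in rad3∆.

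Along epr1 the probes did not move as 1 block. The probe in the transcript just before the coding exons, 2425942-2426001, read 0.30, 0.38 and 0.86 in rad3∆ and -0.08, -0.21 and -0.14 in WT. All 3 rad3∆ arrays were above 0 there and all 3 WT arrays below. The coding probe 2427028-2427087, printed above, read 0.71, 0.86 and 0.51 in rad3∆ and -0.32, 0.02 and 0.03 in WT, again without overlap. The coding probe 2426569-2426628 went the other way: it read 1.10, 0.06 and 0.86 in rad3∆ and 2.23, 1.04 and 0.11 in WT, and WT array 1 gave the highest value of the locus on any array. Its IP was well above background on 5 of the 6 arrays. The last coding probe, 2427371-2427430, averaged 0.58 in rad3∆ and 0.29 in WT.

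The gene pqr1, the ubiquitin ligase gene, lies on the reverse strand at chrI:2421446-2423826 with 9 probes, so that its start and that of epr1 both face the raised stretch. Its gene body averaged 0.36, -0.36 and -0.06 on rad3∆ arrays 1, 2 and 3, against 0.11, -0.31 and -0.19 on WT arrays 1, 2 and 3. The strains overlapped fully. The means were -0.02 ± 0.36 in rad3∆ and -0.13 ± 0.22 in WT, a difference of 0.11, which is smaller than the spread between arrays of either strain. Of its 9 probe means, 6 were higher in rad3∆. Only the coding probe 2422218-2422277 separated the strains, with 0.21, 0.23 and 0.13 in rad3∆ against -0.27, -0.21 and -0.32 in WT.

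The gene rsa3 lies on the reverse strand inside the end of the epr1 transcript, chrI:2427533-2427775, and a single probe, 2427603-2427662, falls in it. The probe counts for epr1 as well, since the transcripts overlap. It read 0.21, -0.19 and 0.15 in rad3∆ and -0.20, 0.15 and -0.24 in WT. The order of the strains differed between slides, and no difference beyond the spread between arrays was seen at this gene.

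**Figure D2:**
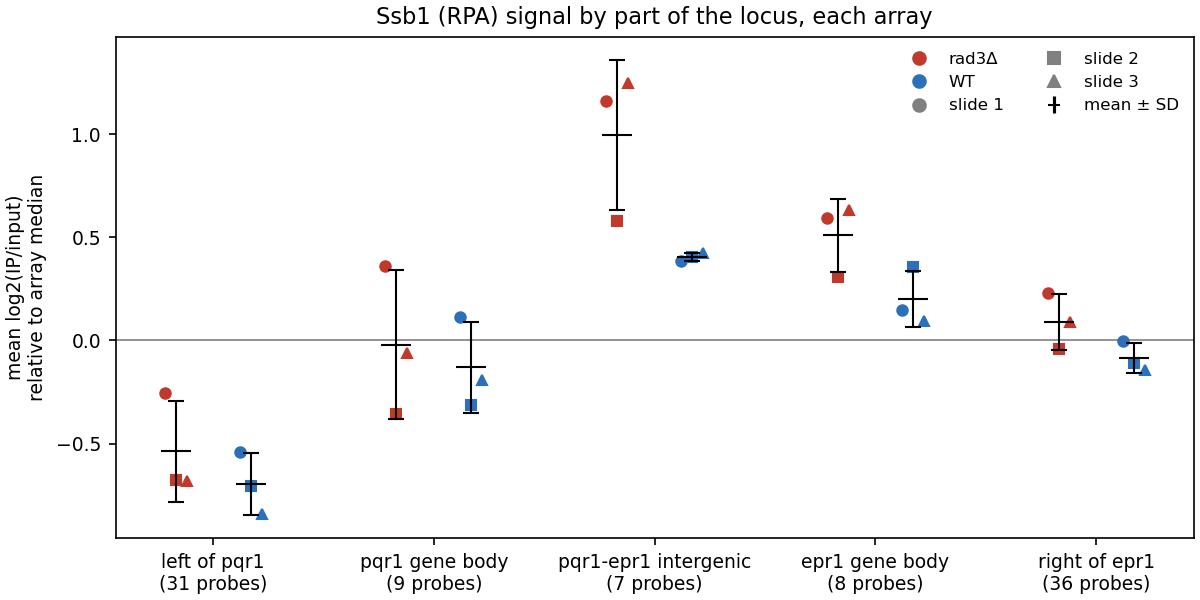
Mean log2(IP/input), with the array median at 0 (y axis), over 5 parts of the locus from left to right (x axis), for rad3∆ (red, left) and WT (blue, right). Symbols are single arrays by slide, and bars are the mean ± SD of 3 arrays. In the intergenic part the rad3∆ arrays lie at 1.16, 0.58 and 1.25, above the WT arrays at 0.38, 0.40 and 0.43, although without the probe near background they overlap; elsewhere the strains overlap with all probes.

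Across the whole locus the strains differed little by comparison. The mean over its 91 probes was 0.18, -0.21 and -0.05 on rad3∆ arrays 1, 2 and 3, against -0.13, -0.25 and -0.32 on WT arrays 1, 2 and 3. The strain means were -0.03 ± 0.20 in rad3∆ and -0.24 ± 0.10 in WT (SD, n = 3 each). The mean difference over windows was 0.20, and it was 0.10 without rad3∆ array 1 and 0.32 without rad3∆ array 2. The median window of the locus differed by 0.21, against -0.02 for the median of all 12039 windows.

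By probe, 70 of the 91 strain means were higher in rad3∆ and 21 were lower. At 7 of the 91 probes every rad3∆ array was above every WT array, a pattern seen at 4.79% of all probes, and at 1 probe every rad3∆ array was below. In 3 of the 26 windows every rad3∆ array was above every WT array, against 6.05% of all windows; these were 2424001-2425000, 2425001-2426000 and, in the downstream part of epr1, 2427001-2428000, and without the probe near background 2 remained, the first one dropping out. The last of these read 0.60, 0.21 and 0.52 in rad3∆ and -0.06, -0.02 and 0.18 in WT. On all 3 slides 9 of the 26 windows were higher in rad3∆, against 15.6% of all windows. Nothing is read from these counts, because the strain difference chose the locus. Elsewhere on the arrays 128 single windows had a larger fitted difference than the 0.66 of window 2424001-2425000.

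**Figure D3:**
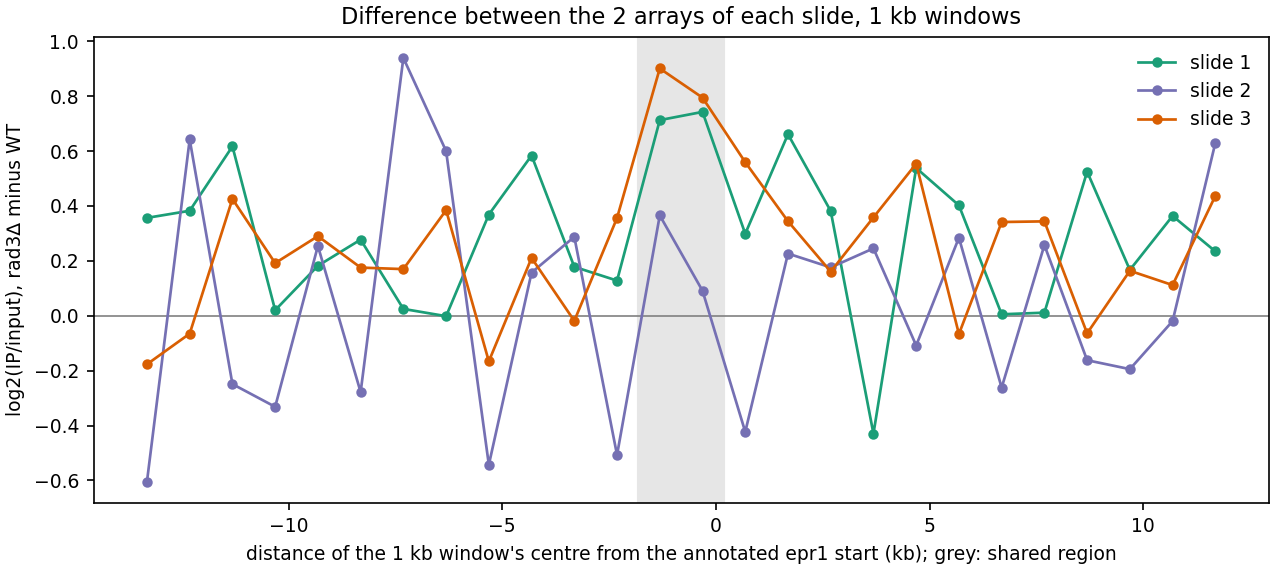
Difference in log2(IP/input), rad3∆ minus WT (y axis), between the arrays of each slide in the 26 windows of 1 kb, against distance of the window centre from the annotated epr1 start in kb (x axis). Each line is a slide and the grey band is the shared region. Slides 1 and 3 are highest in the grey band (0.71 and 0.74 on slide 1, 0.90 and 0.79 on slide 3), while slide 2 reads 0.37 and 0.09 there and runs from -0.60 to 0.94 elsewhere.

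The level of RPA in each strain relative to the array median was tested in the 24 windows outside the shared region, with limma across all windows and Benjamini-Hochberg adjustment. To be called enriched, a window needed an adjusted p below 0.05 and a fitted value of 0.5 or more, which is 1.41-fold; for depleted, the value had to be -0.5 or less. The positions of the locus were chosen with the strain difference in view, which these levels enter, so they are not a fully separate readout. The 24 windows also leave out the raised region, and the right border stops just before a further one. These bounds lower the share of enriched windows among them. In rad3∆, 1 of the 24 windows was enriched, against 18.8% of all windows, and 6 were depleted, against 21.3%. Above the median at an unadjusted p under 0.05 were 4 of the 24 in rad3∆. In WT, 0 of the 24 were enriched, against 18.4% of all windows, with 1 above the median at an unadjusted p under 0.05, and 8 were depleted, against 20.8%. All 6 windows depleted in rad3∆ were among the 8 depleted in WT.

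The enriched window in rad3∆, 2426001-2427000, holds the upstream part of epr1 and had a fitted level of 0.53 ± 0.14 (SE, adjusted p = 0.00632), with 0.67, 0.36 and 0.65 on arrays 1, 2 and 3. Its WT level was 0.39 ± 0.14 (SE, adjusted p = 0.031), below the 0.5 required, with 0.37, 0.78 and 0.09 on the WT arrays. This rad3∆ call was lost without rad3∆ array 3 and with arrays centred on their mode. The 6 windows depleted in both strains lay at the left of the locus, over mus7, the aminotransferase gene SPAC6B12.04C, ies2 and rrg9. The lowest, 2412001-2413000 in mus7, had a fitted level of -1.29 ± 0.14 in rad3∆ (adjusted p = 5.6e-05) and -1.15 ± 0.14 in WT (adjusted p = 0.000107; limma, SE). Of the 3 probes in that lowest window, 2412465-2412524 had IP well above background on 0 arrays and 2412827-2412885 on 3. Its level is therefore poorly measured. The remaining probe, 2412124-2412183, was above background on all 6 arrays and averaged -1.20 in rad3∆ and -1.37 in WT. The windows depleted in WT but not called in rad3∆ were 2414001-2415000, at -0.26 in rad3∆ and -0.52 in WT, and 2430001-2431000, at -0.23 in rad3∆ and -0.56 in WT. That these differ between strains was not tested.

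At the borders of the locus, the first window inside, 2412001-2413000, averaged -1.24 in rad3∆ and -1.10 in WT, and the last window outside on that side averaged -1.02 in rad3∆ and -0.78 in WT. On the right, the last window inside, 2437001-2438000, averaged 0.13 in rad3∆ and -0.30 in WT, and the next outside averaged 0.81 in rad3∆ and 0.55 in WT. The right border thus falls just before a further raised region.

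Outside the shared region 21 genes had at least 2 probes, 12 of them protein-coding. Leaving out the shared region lowers the share of enriched genes among them. By the limma fit across 8194 genes, where 18.2% of all genes were enriched in rad3∆ and 17.7% in WT, 0 of the 21 were enriched in either strain; at an unadjusted p under 0.05, 1 was above the median in rad3∆ and 0 in WT. Depleted were 5 of the 21 in rad3∆, against 20.6% of all genes, and 7 of the 21 in WT, against 21.1%.

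Most tested genes left of pqr1 were depleted in at least one strain. The lowest was mus7, a DNA repair gene, which reaches beyond the locus: it averaged -0.85, -0.73 and -1.46 on rad3∆ arrays 1, 2 and 3, against -1.15, -0.83 and -1.19 on WT arrays 1, 2 and 3. It was depleted in both, with adjusted p = 0.000141 in rad3∆ and 0.000146 in WT. Next to it bit2, a gene of TOR signalling, had a fitted level of -0.26 in rad3∆ and -0.52 in WT, called only in WT. The aminotransferase gene SPAC6B12.04C had -0.45 in rad3∆ and -0.57 in WT, also called only in WT. The gene ies2, for a subunit of the Ino80 chromatin remodeller, had -0.52 in rad3∆ and -0.92 in WT, and rrg9 had -0.76 in rad3∆ and -0.65 in WT; both were depleted in both strains. Of the transcripts on the opposite strand, SPNCRNA.824 (-0.71 in rad3∆, -0.80 in WT) and SPNCRNA.3086 (-0.68 in rad3∆, -0.79 in WT) were depleted in both strains. SPNCRNA.3085 (-0.27 in rad3∆, -0.42 in WT) and SPNCRNA.3087 (0.06 in rad3∆, -0.29 in WT) were not called in either, nor was SPNCRNA.3090 inside pqr1 (0.04 in rad3∆, 0.06 in WT).

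To the right of epr1 all fitted gene levels lay within 0.5 of the array median. The gene trm10, for a tRNA methyltransferase, had 0.27 in rad3∆ and 0.03 in WT. A pair of replication genes follows. The gene spp1, for the catalytic subunit of DNA primase, had -0.10 in rad3∆ and -0.34 in WT, and averaged -0.07, -0.16 and -0.04 on the rad3∆ arrays against -0.08, -0.38 and -0.49 on the WT arrays. The gene drc1, for a factor that assembles the replication preinitiation complex, had -0.04 in rad3∆ and -0.16 in WT. The mitochondrial import receptor gene tom70 had 0.03 in rad3∆ and -0.07 in WT, SPAC6B12.14C had 0.17 in rad3∆ and -0.03 in WT, and SPAC6B12.13, annotated as a protein phosphatase inhibitor, had 0.23 in rad3∆ and 0.08 in WT. The non-coding SPNCRNA.3093, prl43, SPNCRNA.3094 and SPNCRNA.3095 lay at 0.04, 0.06, -0.00 and -0.02 in rad3∆, and at -0.17, -0.02, -0.18 and 0.01 in WT. Of the 33 genes, 4 had 1 probe and 4 had none, and these were not tested.

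The input is the denominator of every ratio, and no window of the locus was called different between the strains in it. The fitted input difference between rad3∆ and WT ran from -0.12 to 0.17 over the 26 windows on the log2 scale. It was called in 0 of the 26 windows by limma with Benjamini-Hochberg adjustment, where 0.0% of all windows were called, and 0 of the 26 had an unadjusted p under 0.05. No window over the deleted rad3 gene was called either, although the input over that gene differed by -4.01 between the strains. The absence of calls therefore does not show that the input was equal. In the window 2424001-2425000 the fitted input stood at -1.33 in rad3∆ and -1.48 in WT, a difference of 0.15 ± 0.12 (SE). In the window 2425001-2426000 it stood at 0.19 in rad3∆ and 0.13 in WT, a difference of 0.06 ± 0.09 (SE). The input of the first window was -1.39, -1.03 and -1.43 on rad3∆ arrays 1, 2 and 3, against -1.29, -1.38 and -1.62 on WT arrays 1, 2 and 3. In both windows it was lower in rad3∆ on slide 1 and higher in rad3∆ on slides 2 and 3. The part of the input in the ratio difference was not tested. The input itself varied widely between windows, from -1.48 to 1.05, in the same pattern in both strains.

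**Figure D4:**
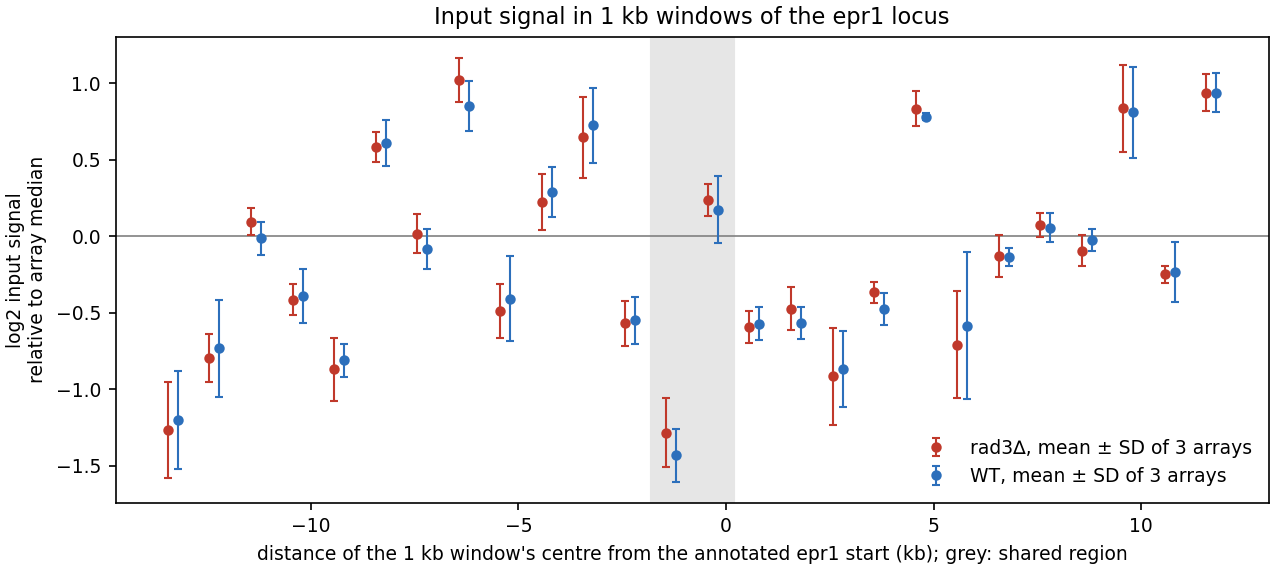
Log2 input signal relative to the array median (y axis) in the 26 windows of 1 kb against distance of the window centre from the annotated epr1 start in kb (x axis), for rad3∆ (red, drawn slightly left) and WT (blue). Points and bars are the mean ± SD of 3 arrays, and the grey band is the shared region. The strains follow the same pattern in all windows, and their fitted differences run from -0.12 to 0.17.

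Among the 315 shared regions of the genome, meaning runs of at least 2 windows enriched on the average of the strains, the epr1 region was short: it held 2 windows, where the median region held 6 and the longest 39. Its mean of 0.94 ranked 14 of 315 in rad3∆, where the median region had 0.65, and its mean of 0.34 ranked 310 of 315 in WT, where the median was 0.63. A high rank in rad3∆ and a low rank in WT follow in part from the choice of the region on the strain difference. The limma calls in the region, given next, follow in part from the same choice and are a description. Nothing is read from these ranks or calls. By the limma fit, the region had both windows called enriched in rad3∆ (1.09 and 0.85). In WT the region had neither window called (0.43 and 0.31, below the 0.5 required). It also stood far from others on its left, where the nearest shared region, chrI:2249001-2253000, was 171 kb away; 5 of the 312 gaps between neighbouring shared regions were at least that long, and the median gap was 17 kb. On its right the next shared region, chrI:2438001-2444000, was 12 kb away, with 0.73 in rad3∆ and 0.55 in WT.

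The 2 regions with the next largest differences that lay more than 200 kb from a chromosome end were also 2 kb long. At chrII:2671001-2673000, over SPBC3E7.07C and the excision repair gene rad13, the means were 1.05, 0.47 and 0.86 on rad3∆ arrays 1, 2 and 3, against 0.09, 0.16 and 0.43 on WT arrays 1, 2 and 3, a difference of 0.57. At chrII:3945001-3947000, over the phospholipid synthesis gene cho2, they were 0.93, 0.72 and 0.92 in rad3∆ against 0.25, 0.44 and 0.45 in WT, a difference of 0.47. Within slides these differences were 0.96, 0.31 and 0.43 at rad13 and 0.67, 0.28 and 0.47 at cho2. The ranges over slides of all 3 regions overlapped, and slide 2 gave the smallest difference at each. The difference between the regions was not tested.

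**Figure D5:**
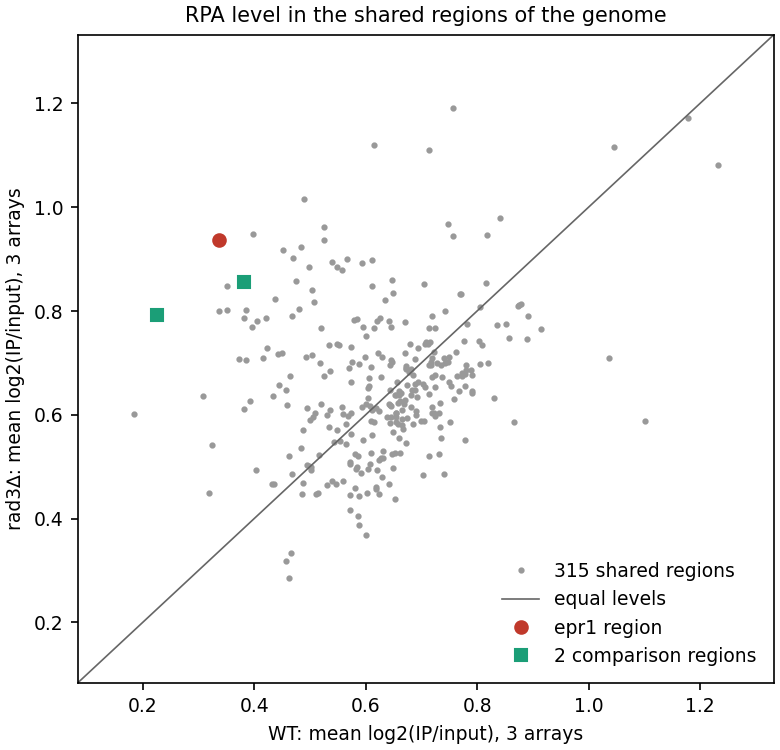
Mean log2(IP/input) over 3 rad3∆ arrays (y axis) against the mean over 3 WT arrays (x axis) for the 315 shared regions (grey points), with the line of equal levels. The epr1 region (red circle, 0.94 in rad3∆ and 0.34 in WT) lies at the upper left edge with the regions at rad13 and cho2 (green squares).

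Base composition was read from the reference. The pqr1-epr1 intergenic stretch was 68.2% A+T, against 63.9% over the nuclear genome and 65.3% over the locus. Of 1265 divergent intergenic stretches between protein-coding genes, 10.9% were longer than its 1989 bp and 48.5% had a higher A+T content, so it was long for its kind and ordinary in composition. Its most A+T-rich 500 bases, chrI:2425239-2425738, were 73.4% A+T, a value that 1.9% of 500-base windows of the genome reached. These 500 bases were picked as the highest within the stretch, while the genome windows were not picked. The 1.9% therefore does not show that the stretch is unusual. No replication origin is marked in the annotation used here.

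The 5 protein-coding genes outside the locus whose gene-body values over the 6 arrays were nearest to those of epr1, out of 4132, were cpc2, mcp7, SPAC688.16, nse4 and rpp103. The measure was the root mean square difference, which ran from 0.10 to 0.14. The nearest, cpc2, which encodes the ribosomal protein RACK1, lies in the shared region to the right, chrI:2439511-2441027. It averaged 0.50, 0.13 and 0.54 on rad3∆ arrays 1, 2 and 3, against 0.25, 0.35 and 0.12 on WT arrays 1, 2 and 3. That rad3∆ array 2 was low, as at epr1, follows from the choice of genes by likeness to epr1. The gene mcp7 averaged 0.53 in rad3∆ and 0.14 in WT.

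Genes of the processes that epr1, pqr1 and rsa3 serve were looked at for their own RPA levels. Of 19 measured genes of autophagy and its endoplasmic reticulum branch, 1 was enriched in rad3∆, against 16.2% of protein-coding genes, and 5 were depleted, against 21.4%. The enriched gene was epr1 itself, which was chosen for its values and so supports nothing; without rad3∆ array 1 or 3, or with arrays centred on the mode, it was not called. In WT 0 of the 19 were enriched, against 16.4% of protein-coding genes, and 6 were depleted, against 21.2%. The median level of the list was -0.38 in rad3∆ and -0.26 in WT, against -0.03 in rad3∆ and -0.02 in WT for all protein-coding genes. Its lowest members included atg16 (-0.99 in rad3∆, -0.80 in WT) and the scramblase gene atg9 (-0.84 in rad3∆, -0.81 in WT), while atg8, whose product epr1's product binds, had -0.37 in rad3∆ and -0.30 in WT, and scs2 had -0.11 in rad3∆ and -0.25 in WT. The median fitted difference of the list, rad3∆ minus WT, was -0.05, against 0.31 at epr1.

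Of 11 measured genes of phosphate homeostasis, 1 was enriched in each strain, the aps1 gene (0.79 in rad3∆, 0.65 in WT), against 16.2% of protein-coding genes in rad3∆ and 16.4% in WT. Depleted were 2 of the 11 in rad3∆, against 21.4%, and 1 in WT, against 21.2%. The phosphate transporter gene pho84 had 0.20 in rad3∆ and -0.08 in WT, and the acid phosphatase gene pho1 had 0.13 in rad3∆ and -0.28 in WT. The median difference of the list, which holds pqr1 itself, was 0.11. Of 21 measured genes of large ribosomal subunit assembly, 4 (19.0%) were enriched in rad3∆, against 16.2% of protein-coding genes, and 3 (14.3%) in WT, against 16.4%. Depleted were 5 (23.8%) in rad3∆, against 21.4%, and 4 (19.0%) in WT, against 21.2%, so all these shares were near the background; rsa3 has too few probes to be among them. The helicase genes spb4 (0.88 in rad3∆, 0.91 in WT) and drs1 (0.82 in rad3∆, 0.92 in WT) were enriched in both strains. The median difference of that list was -0.08.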

How the data were processed

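Each array held immunoprecipitated DNA (Ssb1) and its input in 2 colours. The authors deposited Agilent Feature Extraction output; their processed signals are intensity values that, per the file headers, had been background-subtracted, spatially detrended and dye-normalized (protocol CGH_107_Sep09), and the deposited log10 ratio is red over green. The submitters' processing notes name Agilent Feature Extraction 10.7.3.1; the headers of both replicate 1 arrays give 10.7.1.1. Per the labels, the IP was green on replicates 1 and 2 and red on replicate 3.

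From these, each probe's log2(IP/input) was taken and centred on the median nuclear probe of each array; the 211 probes with an outlier flag on any array were left out (0 of the 91 in the locus), leaving 42430. Array positions follow the design's Feb2002 build. They were compared with ASM294v3 through the G+C content at probe positions, whose spread is lowest where positions match, in 126 segments. Of these 108, the locus among them, matched without an offset. Genes were assigned only in matching segments (36405 probes, 85.4%). The matching segment chrI:3700001-3800000, next to the first mismatch, was left out as well. Probes were averaged over 1 kb windows and genes with at least 2 probes. Levels and input were fitted over all features with limma 3.58.1 in R 4.3.3 (a mean per strain and a dye term; 3 residual and 8.22 prior degrees of freedom for RPA in windows, 5.82 for RPA in genes and 3.09 for the input), two-sided, and adjusted after Benjamini and Hochberg. The dye term makes fitted values differ slightly from plain means. Shared regions were runs of at least 2 windows enriched on the mean of the strains, joined over at most 1. Same-numbered arrays shared a slide per the file headers, and their deviations from the strain means correlated over windows (r = 0.34, 0.31 and 0.51), so they were treated as paired in an alternative fit. The number of arrays limits the precision. Of the columns read, 0 were left unused.

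The locus, its members and the gene lists were chosen with earlier results of these data known. The text names pqr1, epr1 and rsa3, every annotated gene with at least 2 probes in the locus, the 5 genes most like epr1 and the 2 regions with the next largest differences; single probes and list members were chosen after their values were seen. Alternatives covered background correction, centring, normalization, probe filters, base composition, the dye term, pairing, window size, threshold and each array left out; leaving out the probe near background was added after the data were seen. The normexp alternative used median spot signals, since the files hold no mean spot signal.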

Additional observations from a re-analysis of the deposited data

Results flagged for a closer look

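At 4 single probes of the locus all 3 rad3∆ arrays were above the array median and all 3 WT arrays below it, a pattern shown by 0.662% of all 42430 probes. Nothing is read from this count, and the differences were not tested, because the strain difference chose the locus. At the epr1 probe 2425942-2426001, in the transcript before the coding exons, rad3∆ minus WT was 0.66. At the SPNCRNA.3087 probe 2421056-2421115, between rrg9 and pqr1, it was 0.56. At the pqr1 coding probe 2422218-2422277 it was 0.46 and at the tom70 coding probe 2433871-2433930 it was 0.42. Of the 26 windows and of the genes with at least 2 probes, 0 showed the same pattern.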

How the results depend on the processing

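No called result turned its direction; the pqr1 level in rad3∆, -0.03 and not called, was 0.04 after normexp and 0.15 without rad3∆ array 2. The difference over the shared region, 0.60, stayed positive in all alternatives and was 0.60 with the slide as a replicate block, 0.46 after normexp background correction, 0.53 without the probe near background (an alternative chosen after seeing the data), and 0.48 to 0.78 with an array left out. The whole-locus difference of 0.20 ran from 0.10 to 0.32 with an array left out. Pairing by slide left rad3∆ at 6 depleted windows and 1 enriched, and gave 7 depleted windows in WT in place of 8; it moved no count by over 1.5 times. The single enriched window in rad3∆ was the least stable count: it became 2 after normexp, 2 at a fitted value of 0.3 and 2 (of 31) with 0.5 kb windows, 1 (of 12) with 2 kb windows, 0 with arrays centred on the mode and 0 at a fitted value of 1, and ran from 0 (without rad3∆ array 3) to 2 (without rad3∆ array 2). In WT, enriched windows were 1 at a fitted value of 0.3, 1 with 0.5 kb windows, and 0 to 1 with an array left out (1 without WT array 3). Depleted windows at a fitted value of 1 were 1 in rad3∆ and 2 in WT, and in WT 5 (of 20) with probes above background throughout. Depleted genes in WT ran from 4 (without WT array 3) to 8. The gene-body level of epr1 in rad3∆ was 0.51 with all arrays, and it lost its call, which needs 0.5, without rad3∆ array 3 (0.37), without rad3∆ array 1 (0.47) and with mode centring (0.41). Normexp gave -1.41 for rad3 in the input, against -4.01. Except for windows and filters that change what is counted, the cause was not tested. Dim probes, and 3 arrays for each strain, limit all values.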
